A study of Mus musculus with 69 samples.

Results

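The livers described here were those of untreated old mice, the 35 controls among the 69 livers of the series. They came from C57BL6/J mice of 25 months of age, 16 females (codes F651 to F695) and 19 males (codes M366 to M374 and M716 to M730), fed LabDiet 5LG6-JL chow that held the Eudragit capsule without drug. All other livers of the series came from mice fed 14 ppm rapamycin, and they entered only the quantile normalization. Each array held the RNA of 1 liver of 1 animal, so every liver was a biological replicate of its sex. Levels were measured on Illumina bead arrays as a log2 signal, and each gene was read as its deviation from the mean of the control females or of the control males, so that a difference between the sexes could not appear as a difference between livers. What follows describes which genes differed most from liver to liver under one diet and which of them moved together. Levels were not tested between groups of mice, and the only tests between the sexes were of the r of pairs of genes.

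The liver makes most of the proteins of blood plasma and takes up, stores and burns fat, and it changes its transcripts with inflammation, feeding, hormones and the time of day. In the acute phase response, cytokines from activated macrophages raise the hepatocyte transcripts of serum amyloid A, orosomucoid and lipocalin. The receptor PPAR alpha raises genes that oxidize fatty acids, the SREBP factors raise genes that make sterols and fatty acids, and the clock genes drive daily rhythms. A piece of liver also holds Kupffer cells, which are its resident macrophages, together with lymphocytes, endothelial cells, stellate cells and blood. In such bulk tissue, a lower number of cells of a type and less of a transcript in each cell cannot be told apart.

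The arrays read as liver. Transthyretin (Ttr) had a mean log2 signal of 14.88 and the apolipoproteins Apoa1 and Apoa2 means of 15.19 and 15.28, each above at least 99.81 percent of the 8839 genes tested. The probe for albumin (Alb), a defining hepatocyte product, read only 6.85, so it said nothing of the level of that transcript. On the control arrays 40.4 to 47.4 percent of probes were detected. The summed signal of the 11 hepatocyte markers tested stayed between 17.59 and 17.90 on the log2 scale in all 35 livers. Quantile normalization gives the highest ranks nearly the same values on every array. This narrow range therefore cannot show whether the hepatocyte content differed between livers. Defining transcripts of fat (Adipoq, Plin1), of pancreas (Prss1, Cpa1) and of bile ducts (Krt19, Epcam) had no tested probe. Other markers did, 6 of 12 for fat, 5 of 20 for pancreas and 5 of 11 for bile ducts. Their summed log2 signals ran from 11.51 to 14.37, from 9.71 to 10.71 and from 9.18 to 9.71. Whether these tissues contributed to the samples was not tested.

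A few livers stood apart over all genes. The root mean square deviation over the tested probes was 2.04 times that of the median liver in F653, 1.99 times in F652, 1.77 times in F694 and 1.72 times in M730. M367, at 1.31 times, lay just past the limit of 1.3 and F651, at 1.21 times, just short of it. In F653, 386 genes were at least 2-fold above the mean of the females and 66 at least 2-fold below it. In F652 the counts were 215 and 205, in F694 they were 259 and 82, in M730 they were 149 and 132, and in M367 they were 44 and 91. Results that rest on these 5 livers are given below with and without them. The first principal component of the deviations held 32.4 percent of the variance, and F653, F694 and M730 lay at its high end. It moved with the percent of probes detected (r = 0.577, permutation p = 0.00087, adjusted p = 0.0313 over 36 relations, Spearman rho = 0.482 with p = 0.00686 and adjusted p = 0.0717, n = 35 livers), with r = 0.475 when the 2 livers farthest from the median were left out. Within the 4 runs of consecutive animal numbers this r was 0.794, 0.658, 0.499 and 0.079, the last in M716 to M730. With the percent of probes detected as a term in the fit, 436 genes in place of 512 had an SD of 0.5 or more, and the mean deviation of the S100a8 set described below had r of 0.561 with that percent.

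Most genes differed little between livers of the same sex. The median within-sex SD of the log2 signal was 0.174, and 512 of 8839 genes (5.79 percent) had an SD of 0.5 or more. The median SD was 0.195 in the females and 0.144 in the males. Among the 512 genes, 389 had the larger SD in the females, and 313 genes had an SD of 0.5 or more in each sex. Of these 512 genes, 125 had a further probe, and the median r between the probes of a gene was 0.954. Without the 5 livers that stood apart, 319 genes had an SD of 0.5 or more, and 317 of them were among the 512.

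The genes with the widest spread were secreted and antimicrobial proteins and enzymes of fat and drug metabolism. Prtn3, a serine protease of neutrophil granules, had the largest SD (2.04). It was followed by Lcn2 (2.00), an iron-binding acute phase protein, and by Car3 (1.98), a carbonic anhydrase of hepatocytes, fat and muscle. S100a8 (1.97), a neutrophil calcium-binding protein, Orm2 (1.94), an orosomucoid of plasma, S100a9 (1.86), the partner of S100a8, Serpina1e (1.85), an alpha-1 antitrypsin, Cyp4a14 (1.85), a fatty acid hydroxylase, and Saa1 (1.82), a serum amyloid A, came next. Lcn2 ranged from 9.51 through a median of 13.04 to 15.11 in the females and from 9.03 through 10.93 to 14.96 in the males, a 48.7-fold and a 60.7-fold range. Car3 ranged from 6.85 in F652 through a median of 10.99 to 13.50 in the females, and from 7.30 in M730 through 13.22 to 14.07 in the males. Cyp2b9, a P450 more abundant in female mouse liver, ranged from 6.80 through 11.37 to 13.13 in the females and from 7.42 through 9.89 to 12.35 in the males. The ranges of both sexes overlapped widely for all 3 genes, and the males were the tighter group for Car3 apart from a few low livers.

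**Figure D1:**
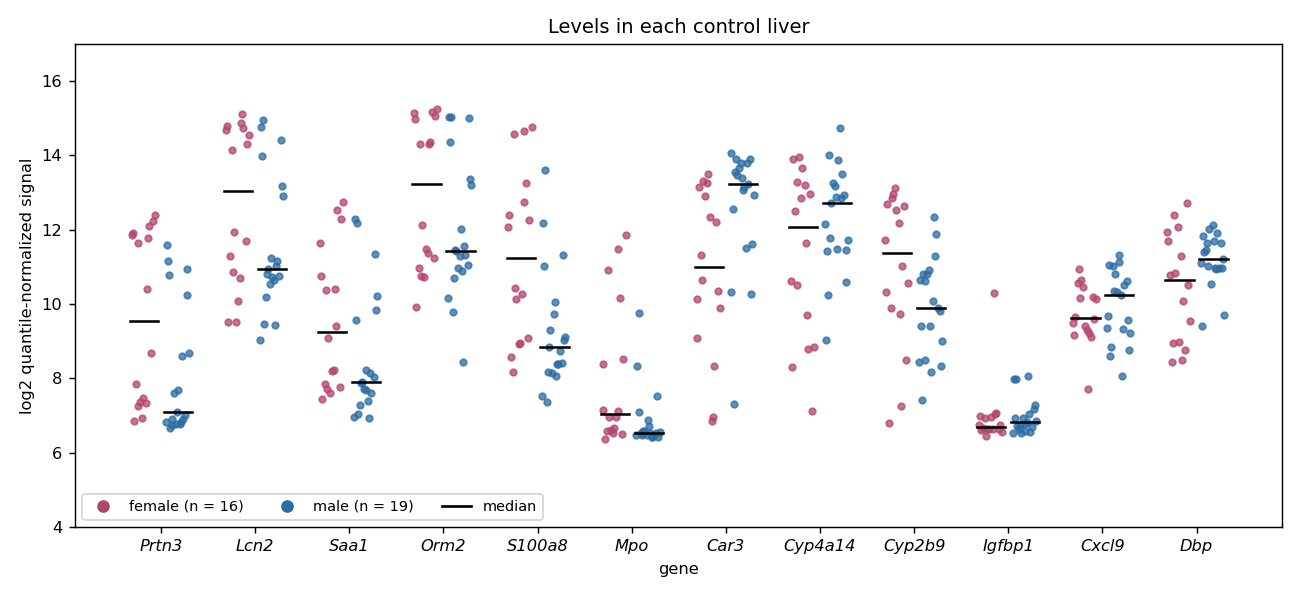
Log2 quantile-normalized signal of 12 genes in each control liver, with 1 point per liver, females (n = 16) and males (n = 19) side by side and a black bar at the median of each sex. Lcn2, Orm2 and Prtn3 spread widely in both sexes, while for Igfbp1 a single female, F652 at 10.30, lies far above all others.

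The 512 variable genes fell into 20 sets of 4 or more genes whose deviations correlated, which held 427 of them, when the tree of average linkage was divided at r of 0.6. Over all pairs of the 8839 genes the median r was -0.002 and 4.731 percent of pairs had r of 0.5 or more. Since the sets were built from these correlations, their mean r is a description and not a test. The mean r between members ran from 0.64 to 0.82 over the sets. It stayed close to that in both sexes for most sets. The exceptions were the sets led by Cidea (0.16 in females, 0.77 in males) and Cyp4a12a (0.09 and 0.82), and the Mup6 set (0.75 and 0.36). Without the 5 livers that stood apart, the mean r of the sets led by Gadd45g, Mup20 and Got1 went from 0.73, 0.71 and 0.77 to 0.27, 0.31 and 0.51, so the correlation within those sets was much lower in the other 30 livers.

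**Figure D2:**
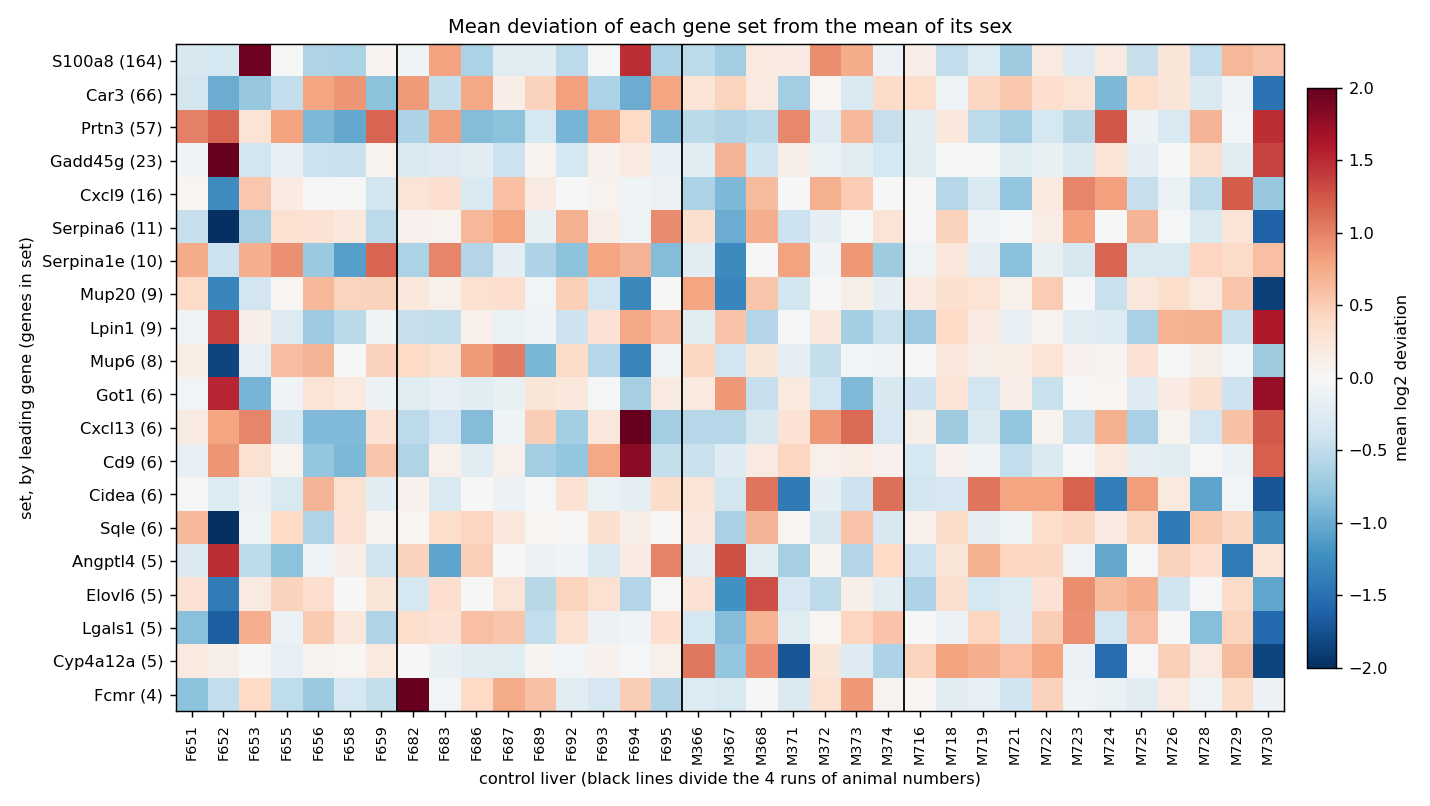
Mean log2 deviation of the genes of each set (rows, named by the gene of largest SD, with the number of genes) in each control liver (columns, the 4 runs of animal numbers divided by black lines), from blue (lower than the mean of the sex) to red (higher). F652 and M730 stand out in many sets at once, F653 and F694 in the S100a8 set.

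Acute phase genes differed widely between livers of both sexes. A set of 57 genes held Prtn3, Lcn2, Orm2, Saa1, Saa2, Apcs (serum amyloid P), Saa3, Saa4, Orm1, Lbp, Cd14, Serpina3n, Socs3 (an inhibitor of cytokine signalling), the complement genes C8a, C8b and C9 and the metallothioneins Mt1 and Mt2. Its mean deviation was highest in M730 (1.477), M724 (1.25) and F659 (1.16) and lowest in F658 (-1.02), F692 (-0.94) and F695 (-0.90). Saa1 ran from 7.44 through a median of 9.24 to 12.74 in the females, a 39.2-fold range, and from 6.93 through 7.90 to 12.29 in the males, a 41.2-fold range. The highest Saa1 was in F683 and the lowest in M367. Orm2 ran from 9.93 through 13.22 to 15.26 in the females and from 8.43 through 11.42 to 15.04 in the males, 40.4-fold and 97.4-fold ranges. Both genes were high in some livers of each sex and low in others.

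Lcn2, Orm2 and Saa1 each had a gap in their levels. The mean deviation of the whole set ran through intermediate values, with M729 at -0.059, M718 at 0.217, F653 at 0.275 and F694 at 0.396. For Lcn2 no liver lay between deviations of -0.35 and 1.32, with 21 livers below this gap and 14 above it. For Orm2 the gap lay between 0.08 and 1.25, with the same 14 livers above it, and for Saa1 between -0.21 and 0.76, with 22 livers below and 13 above. The livers above the gap for Saa1 were all among those 14 and numbered 7 females (F651, F652, F653, F655, F659, F683 and F693) and 6 males (M371, M373, M718, M724, M728 and M730), while F694 was above it for Lcn2 and Orm2 only. As a share of the range of the gene, the gap was 0.255 for Lcn2, 0.176 for Orm2 and 0.166 for Saa1. For Mpo it was 0.15 and for Dbp 0.133. Gaps were looked for only in a chosen list of genes, and whether they exceed those of an even spread was not tested. Because of these gaps, r is given on each side. Saa1 and Orm2 had r = 0.887 in the 22 livers below the gap and 0.771 in the 13 above it, and Saa1 and Apcs had 0.732 and 0.890. Saa1 and S100a8 had r = 0.747 and 0.503. Saa1 and Hamp, the iron hormone hepcidin, had r = -0.554 below and -0.090 above. Over all 35 livers their r was -0.334 (permutation p = 0.0634, adjusted p = 0.0664 over 22 pairs), which did not pass. The rho of the pair was -0.464 (permutation p = 0.00811, adjusted p = 0.0094). The groups were read from the levels themselves and were not tested against each other.

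In the limma fit over all tested probes, with sex as a term, 9.11 percent of genes were higher and 10.2 percent lower with Saa1 at an adjusted p below 0.05. Of 21 other acute phase genes tested, 18 were higher and 0 lower with Saa1, and of 14 neutrophil genes 10 were higher and 0 lower. With the 5 livers that stood apart left out, 18 and 11 were higher. The genes ranked highest by r were Saa2, Apcs and Orm2. Apcs rose by 0.62 ± 0.03 log2 (SE) for each log2 unit of Saa1 (adjusted p = 4.74e-17). Over probes, 1052 were higher and 1419 lower (19.6 percent of probes called), so 42.6 percent of calls were higher, against 55.1 percent with median scaling in place of quantile normalization. Probes of near-identical relatives such as Saa1 and Saa2 may share transcripts, so that their correlation may be in part that of 1 signal.

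The promoters of Saa1 and Saa2 are shown because these neighbouring genes had nearly the same deviations. Both start from divergent positions on chromosome 7 (Saa1 chr7:46742981-46743230, minus strand, Saa2 chr7:46751583-46751832, plus strand, GRCm38.p6, 250 bases before the RefSeq start). Capitals mark the C/EBP word TTGCNNAA, searched on both strands, which lies from position -182 to -175 before the start of Saa1 and from -183 to -176 before that of Saa2.
Saa1: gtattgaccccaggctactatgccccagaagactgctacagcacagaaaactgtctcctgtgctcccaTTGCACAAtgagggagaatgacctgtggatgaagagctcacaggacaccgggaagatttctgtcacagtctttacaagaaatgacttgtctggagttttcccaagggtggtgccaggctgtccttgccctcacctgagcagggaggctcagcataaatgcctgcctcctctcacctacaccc
Saa2: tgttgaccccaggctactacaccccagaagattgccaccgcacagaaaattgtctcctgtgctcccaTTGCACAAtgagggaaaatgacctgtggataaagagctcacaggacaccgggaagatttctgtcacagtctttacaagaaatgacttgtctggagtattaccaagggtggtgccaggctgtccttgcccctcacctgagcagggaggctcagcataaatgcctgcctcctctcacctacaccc
Of the 18 acute phase genes with a RefSeq promoter, 8 held this word (44.4 percent) and 4 the STAT word TTCNNNGAA (22.2 percent), against 9.55 and 7.18 percent of all 27025 promoters. Orm2 and Lcn2 were among those with the C/EBP word and Apcs and Socs3 among those with the STAT word. The words are descriptions of these 250 bases only.

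Prtn3 was compared with other neutrophil granule genes. With Mpo and Elane, myeloperoxidase and neutrophil elastase of the same granules, Prtn3 had r of 0.723 and 0.680 over the 35 livers, and with S100a8 r of 0.86. Elane and Mpo had r of 0.988 with each other, and 0.964 and 0.968 in the 29 livers below and the 6 above the widest gap of Mpo. Prtn3 had a gap of its own, between deviations of 0.76 and 2.00. In the 12 livers above it, r with Elane was -0.038 and with Mpo 0.031, and in the 23 below it 0.465 and 0.534. With Saa1, r of Prtn3 was 0.573 in the 13 livers above the gap of Saa1 and 0.679 in the 22 below. Prtn3 ran from 6.84 through 9.54 to 12.39 in the females and from 6.65 through 7.08 to 11.59 in the males.

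Genes of fatty acid oxidation ran the opposite way. A set of 66 genes held Car3, Cyp4a14, Cyp4a31, the acyl-CoA thioesterases Acot1, Acot3 and Acot4, Acaa1b, Ehhadh, Eci1, Decr1, Retsat (retinol saturase), Plin2, the hormone Fgf21 and the carboxylesterases Ces1e and Ces1f. Its mean deviation was lowest in M730 (-1.47), F652 (-0.999) and F694 (-0.99) and highest in F658 (0.88), F682 (0.85) and F692 (0.82). Cyp4a14 ran from 7.13 in F655 through 12.08 to 13.97 in the females, a 114-fold range, and from 9.02 in M724 through 12.72 to 14.74 in M367 in the males, a 52.8-fold range. Acot1 ran from 8.04 through 10.61 to 12.70 in the females and from 7.94 through 10.54 to 13.53 in the males. M367 held the highest Cyp4a14, Acot1, Retsat (15.10) and Fgf21 (10.06) among the males.

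The scores of the Car3 and Prtn3 sets had r of -0.93 over the 35 livers. Within each side of the Saa1 gap the relation of Saa1 and Cyp4a14 had the same sign, with r = -0.554 in 22 livers and -0.644 in 13. With Cyp4a14 as the anchor, 11.6 percent of genes were higher and 10.1 percent lower (21.7 percent of probes). Of the 22 other PPAR alpha targets tested, 21 were higher and 0 lower with Cyp4a14, and of 22 acute phase genes 0 were higher and 19 lower. In the other 30 livers the counts were 20 and 19. Acot1, Cyp4a31, Ech1 (an enoyl-CoA isomerase) and Retsat had the highest r, 0.93 each, and C4bp, a complement inhibitor of plasma, the lowest (-0.93). With Saa1 as the anchor, 21 of 23 PPAR alpha targets were lower and 0 higher. Subunits of respiratory complex I, whose SDs were small (median 0.178), were lower with Saa1 for 19 of 32 and higher for 0. Of all genes, 10.2 percent were lower with Saa1. With median scaling only 8 of the 32 were lower. Fewer probes of any kind were then called lower with Saa1, and its calls in both directions went from 2471 to 1621. Whether the fall was specific to complex I was not tested.

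Of 22 pairs of genes chosen for known relations, 20 had an r with an adjusted p below 0.05, and 2 of the pairs hold Cyp4a14. The pairs were chosen with earlier results of these data known, so their p-values are not an independent check. Cyp4a14 and Pdk4, a kinase that turns off pyruvate use, had r = 0.516 (permutation p = 0.00129, adjusted p = 0.00167 over 22 pairs, rho = 0.548 with p = 0.00066, n = 35 livers, r = 0.494 without the 2 farthest livers). Within the runs it was 0.870 and 0.686 in the females and 0.281 and 0.485 in the males. Between the 8 livers with Cyp4a14 deviations of -1.66 or less and the 27 at -0.88 or more no liver lay, and within these r was -0.623 and 0.178. Dividing the livers by Cyp4a14 itself narrows its range on each side, so these r cannot show whether the pair holds. Cyp4a14 and Scd1, the desaturase of lipogenesis, had r = -0.418 (permutation p = 0.00832, adjusted p = 0.0092, rho = -0.449 with p = 0.00764, r = -0.378 without the 2 farthest livers). In the run M716 to M730 that r was 0.021, against -0.555, -0.604 and -0.637 in the others, so the relation did not hold in every run, while on the 2 sides of the gap it was -0.651 and -0.444.

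**Figure D3:**
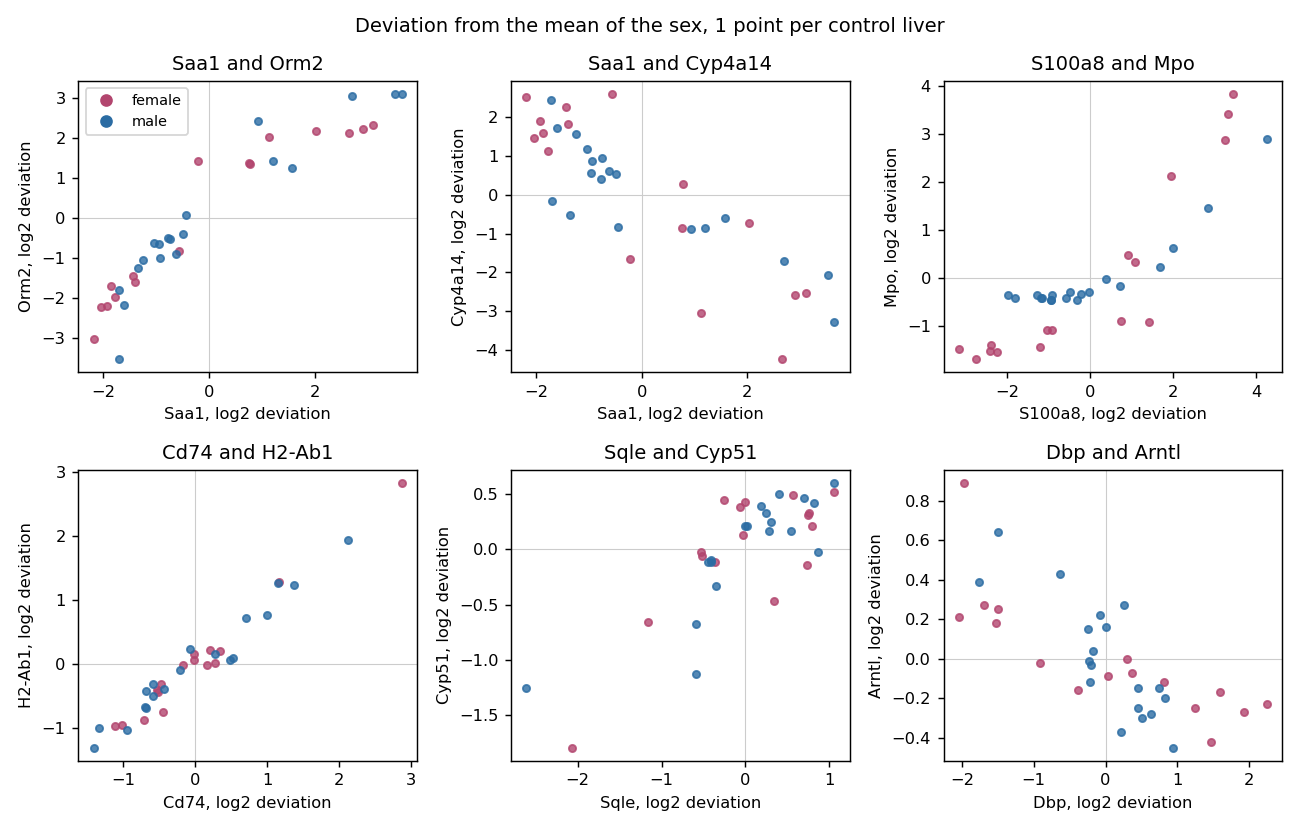
Deviation in log2 units from the mean of the sex for 6 pairs of genes, with 1 point per control liver (females red, males blue). Saa1 and Orm2 rise together and Saa1 and Cyp4a14 run opposite, with an empty stretch in Saa1 between -0.21 and 0.76, while for Sqle and Cyp51 the low end is made by a few livers.

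The largest set held 164 genes, among them neutrophil, macrophage and class II genes. The widest spread in it was that of S100a8, S100a9, Ltf, Camp and Mpo, which are neutrophil granule genes, and Ngp, Elane, Ctsg and Retnlg of the same cells were members. Macrophage genes (Vsig4, Clec4f, C1qa, C1qb, C1qc, Adgre1), class II genes (Cd74, H2-Ab1, H2-Eb1, H2-Aa), platelet genes (Pf4, Ppbp), the red cell anion exchanger Slc4a1, replication genes (Mcm4, Mcm5, Uhrf1) and genes of histone H2A (H2ac7, H2ac24) were also members. The mean deviation was 1.95 in F653, 1.47 in F694 and 0.93 in M372, and the lowest was -0.71 in M721. S100a8 ran from 8.17 through 11.25 to 14.77 in the females and from 7.35 through 8.85 to 13.60 in the males, 97.3-fold and 76.1-fold ranges. S100a8 and S100a9, the subunits of calprotectin, had r = 0.983 (permutation p = 1e-05, the smallest the permutations could give, adjusted p = 2e-05, rho = 0.977, n = 35 livers, r = 0.978 without the 2 farthest livers). Mpo was detected on 14 of 35 arrays and ran from 6.36 through 7.04 to 11.86 in the females, where F683, F694 and F653 were high, and from 6.42 through 6.53 to 9.76 in the males, where M730 was high.

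With S100a8 as the anchor, 18.1 percent of genes were higher and 18.9 percent lower, and over probes (36.4 percent called) the share of calls that were higher was 43.9 percent, or 60.5 percent with median scaling. All 13 other neutrophil genes tested were higher with S100a8, as were 20 of 22 acute phase and 11 of 14 Kupffer cell genes, but 6 of 22 class II and lymphocyte genes, with 1 lower. Among the 30 other livers these counts were 12, 19, 6 and 3. With Cd74 as the anchor, 11.9 percent of genes were higher and 8.02 percent lower. Of 21 other class II and lymphocyte genes 19 were higher, with 11 of 14 Kupffer cell, 14 of 17 cell cycle and 14 of 21 interferon genes, but 3 of 14 neutrophil and 0 of 22 acute phase genes. In the 30 other livers these were 19, 10, 12, 10, 2 and 0. Of Cd74 calls over probes (19.2 percent called) 56.1 percent were higher, against 96.2 percent with median scaling. The r of Cd74 and S100a8 was 0.227 over 35 livers, 0.077 in the 29 livers with Cd74 deviations of 0.71 or less and 0.732 in the 6 with 1.0 or more, and that of Cd74 and Vsig4, a Kupffer cell receptor, 0.678.

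Cd74, the invariant chain of class II, ran from 9.93 in F652 through 10.95 to 13.91 in F653 among the females, and from 9.75 in M721 through 10.95 to 13.28 in M372 among the males. After F653 the next female was F682 at 12.21, so the upper end of the females was a single liver. Cd74 and H2-Aa, a class II alpha chain, had r = 0.946 (permutation p = 1e-05, adjusted p = 2e-05, rho = 0.899, n = 35 livers) and 0.915 without F653 and M372. The cell cycle genes Top2a and Cdk1 had r = 0.912 (permutation p = 1e-05, adjusted p = 2e-05, rho = 0.862) and 0.853 without F653 and F683. Collagen genes Col1a1 and Col3a1 had r = 0.911 (permutation p = 1e-05, adjusted p = 2e-05, rho = 0.683 with p = 2e-05), which fell to 0.653 without F653 and M722. With a stricter detection filter (detection p below 0.01), neither Top2a and Cdk1 nor Col1a1 and Col3a1 could be tested as a pair. Of 18 stellate cell and matrix genes 11 were higher with Cd74, and 4 without the 5 livers.

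Many genes of the marker lists are also members of the S100a8 set, so their summed signals are not a separate check of it. The 14 neutrophil markers tested summed to between 11.77 and 16.22 on the log2 scale in the females (median 13.17) and between 11.29 and 14.77 in the males (median 12.24). The highest were F683, F694, F653 and F659. The 14 Kupffer cell markers ran from 12.96 to 15.63 and from 12.48 to 14.86, highest in F694, F653 and M372, and the 22 class II and lymphocyte markers from 13.06 to 15.84 and from 12.60 to 15.22, highest in F653, M372 and F694. F653 and F694 were also the highest of all livers for the 5 erythroid markers tested. The B cell transcripts Ighm and Jchain had no tested probe. A set of 4 genes, Fcmr, Mzb1, Cd79b and Ccl8, of which the first 3 belong to B and plasma cells, was high in F682 (mean deviation 2.00) and no more than 0.87 elsewhere. A set of Cxcl13, Lpl, Cd163, Marco, Rbm3 and Atp1b3 was highest in F694 (2.39), M730 (1.22) and M373 (1.14), and Cxcl13, a chemokine that draws B cells, reached 12.86 in M373 against a male median of 8.36. The part of blood and infiltrating cells in these levels was not tested.

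A further group of sets was led by F652 and M730, often with M367. The set of 23 genes led by Gadd45g held Ddit4, Eif4ebp3, Chac1, Sesn1, Igfbp1, Irs2, Pnpla2, Socs2 and Pim3, among them stress-induced genes and genes that insulin lowers. Its mean deviation was 2.77 in F652, 1.35 in M730 and 0.68 in M367, and the lowest was -0.44. Igfbp1, the insulin-repressed binding protein of insulin-like growth factors, ran from 6.45 through 6.70 to 10.30 in the females and from 6.53 through 6.81 to 8.06 in the males. After F652 the next female was at 7.06, so the female range was made by that liver, and the 2 highest males were M367 and M730. Ddit4, an inhibitor of mTORC1, was at 13.09 in F652 against a female median of 8.25 and at 10.32 in M730 against a male median of 7.97. Igfbp1 and Pck1, the gluconeogenic enzyme, had r = 0.655 (permutation p = 2e-05, adjusted p = 3.67e-05, rho = 0.520 with p = 0.00194, n = 35 livers) and 0.516 without F652 and M367. In the 29 livers with Igfbp1 deviations of 0.09 or less r was 0.233, and in the 6 with 0.19 or more it was 0.697. By run it was 0.741 and 0.306 in the females and 0.811 and 0.563 in the males.

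The same livers were at the other end for lipogenic and secreted genes. The set of Serpina6, Thrsp, Aqp8, Aacs, Gamt, Angptl8, Me1, Insig1, Mid1ip1, Pklr and Tlcd2 had its lowest mean deviations in F652 (-2.30), M730 (-1.61) and M367 (-0.99). Thrsp, a lipogenic regulator, was 8.42 in F652 against a female median of 11.13, and 8.84 in M367 against a male median of 11.13. Serpina6, the corticosteroid-binding globulin, ran from 7.97 in F652 through 12.44 to 14.49 in the females, a 92.0-fold range, and from 8.26 in M730 through 10.56 to 11.06 in the males, a 6.97-fold range. The Lpin1 set (Lpin1, Fkbp5, Usp2, Per1, Ciart, Tsc22d3, Cebpb, St3gal5, Ccn2) was highest in M730 (1.604), F652 (1.37) and F694 (0.77). Fkbp5 and Tsc22d3 are glucocorticoid targets and Per1, Ciart and Usp2 are clock outputs. Mt1 and Fkbp5 had r = 0.595 (permutation p = 0.00011, adjusted p = 0.000161, rho = 0.553 with p = 0.00058, n = 35 livers, r = 0.606 without the 2 farthest livers). By run it was 0.738 and 0.227 in the females and 0.677 and 0.726 in the males. Genes of amino acid use (Got1, Asl, Cth, Aass) were highest in M730 (1.74), F652 (1.53) and M367 (0.87) as well. Among the gluconeogenesis list, 14 genes tested, the median r between members was 0.189.

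Sterol synthesis genes moved as a small tight set. Sqle, Hmgcs1, Fdps, Msmo1, Mvd and Cyp51, 6 enzymes from acetoacetyl-CoA to cholesterol, had a mean r of 0.82, with 0.83 in females and 0.81 in males and 0.75 without the 5 livers. In the run F682 to F695 the mean r was 0.20, where the set varied little. The score was lowest in F652 (-2.25), M726 (-1.41) and M730 (-1.28) and highest in M368 (0.69). Sqle, squalene epoxidase, ran from 9.36 through 11.41 to 12.47 in the females and from 8.19 in M726 through 10.99 to 11.85 in the males. Hmgcs1 ran from 11.80 in F652 through 14.70 to 15.26 and from 12.11 in M730 through 14.39 to 15.04. With Sqle, 1.4 percent of genes were higher and 1.18 percent lower, and 13 of 17 other cholesterol synthesis genes were higher, against 12 without the 5 livers and 14 with median scaling. Cyp51, the lanosterol demethylase, rose by 0.54 ± 0.07 log2 (SE) per log2 unit of Sqle (adjusted p = 1.17e-05). In the 13 livers with Sqle deviations of -0.26 or less, r of Sqle and Cyp51 was 0.799, and in the other 22 it was 0.151. Over all probes 49.4 percent of the 316 calls (2.51 percent of probes) were higher, or 93.2 percent with median scaling, and leaving out F652 and M726 gave 1474 calls.

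The promoters of Hmgcs1 (chr13:119690101-119690350, plus strand) and Msmo1 (chr8:64733579-64733778, minus strand, both GRCm38.p6, from RefSeq) are shown for the words the sterol genes share. Capitals mark the CCAAT box (CCAAT, searched on both strands) and, in Hmgcs1, the sterol element TCACNCCAC.
Hmgcs1: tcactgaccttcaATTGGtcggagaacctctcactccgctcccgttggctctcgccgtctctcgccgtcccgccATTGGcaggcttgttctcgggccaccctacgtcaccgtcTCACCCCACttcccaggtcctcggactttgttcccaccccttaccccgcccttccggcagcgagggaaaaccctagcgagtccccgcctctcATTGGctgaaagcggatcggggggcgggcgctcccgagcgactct
Msmo1: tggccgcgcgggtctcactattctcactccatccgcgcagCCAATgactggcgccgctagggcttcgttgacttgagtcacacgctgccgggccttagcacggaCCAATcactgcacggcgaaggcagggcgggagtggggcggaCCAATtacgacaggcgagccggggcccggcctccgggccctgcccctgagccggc
Of 15 cholesterol synthesis genes with a promoter, 14 held a CCAAT box within 250 bases (93.3 percent, against 34.5 percent of all promoters) and 1, Hmgcs1, the sterol element (6.67 against 1.04 percent). Msmo1 holds 3 CCAAT boxes in the stretch shown and Hmgcs1 also 3.

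Lipogenic genes outside that set were looser. Elovl6, Acss2, Scd1, Acly and Chrna4 formed a set of 5 with a mean r of 0.76, lowest in F652 (-1.40), M367 (-1.21) and M730 (-1.04) and highest in M368 (1.29). Scd1 and Fasn had r = 0.660 (permutation p = 8e-05, adjusted p = 0.000126, rho = 0.690 with p = 2e-05, n = 35 livers, r = 0.691 without F689 and M367). Scd1 and Elovl6 had r = 0.689 (permutation p = 1e-05, adjusted p = 2e-05, rho = 0.7, r = 0.712 without the same livers). With Scd1, 2.17 percent of genes were higher and 2.89 percent lower, and 8 of 20 other fatty acid synthesis genes were higher and 0 lower. With the 5 livers left out 4 of them were, and the number of probes called went from 650 (5.15 percent) to 36. Of calls over probes 42.6 percent were higher, or 82.3 percent with median scaling. Igfbp2 had the lowest r with Scd1 (-0.79), with -0.795 in each sex. Angptl4, Plin4, Plin5 and Mfsd2a, genes of fat storage and release that PPAR factors raise, formed a separate set that was high in F652 (1.475), M367 (1.28) and F695 (1.00) and low in M729 (-1.40). Angptl4, an inhibitor of lipoprotein lipase, was highest in F652 (12.26) among the females and in M367 (12.43) among the males.

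A set of 16 interferon-induced genes (Cxcl9, Ifi27l2a, Ifit3, Usp18, Oas1g, Rsad2, Gvin1, Isg15, Apol9b, Gbp3, Igtp, Oasl2, Bst2, Samd9l, Irgm2 and Psmb9) was highest in 3 males, M729 (1.20), M723 (0.98) and M724 (0.82), and lowest in F652 (-1.27), M367 (-0.90) and M721 (-0.79). Its mean r was 0.59 in the females and 0.81 in the males. Its score had r of 0.46 with that of the S100a8 set, or 0.65 in the 30 livers that did not stand apart, and -0.66 with that of the Angptl4 set. Ifit3, an antiviral effector, ran from 7.84 through 9.47 to 10.09 in the females and from 8.47 through 9.44 to 11.52 in the males. Isg15, a ubiquitin-like modifier, ran from 7.22 through 8.38 to 9.00 and from 7.57 through 8.46 to 10.23. Medians of the sexes were alike and the upper tail was in the males. Cxcl9 was high in M372 (11.33) and M729 (11.13) but also in F653 (10.93), livers with high Cd74.

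The promoters of Ifit3 (chr19:34583329-34583528, plus strand), Isg15 (chr4:156200819-156200968, minus strand) and Rsad2 (chr12:26456453-26456602, minus strand, GRCm38.p6, RefSeq) are shown up to the start of each gene, with capitals for the core of the interferon-stimulated response element, GAAA followed by any 2 bases and GAAA again, searched on both strands.
Ifit3: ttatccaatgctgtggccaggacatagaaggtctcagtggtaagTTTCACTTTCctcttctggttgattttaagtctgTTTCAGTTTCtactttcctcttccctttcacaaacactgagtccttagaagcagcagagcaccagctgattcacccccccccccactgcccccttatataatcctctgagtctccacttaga
Isg15: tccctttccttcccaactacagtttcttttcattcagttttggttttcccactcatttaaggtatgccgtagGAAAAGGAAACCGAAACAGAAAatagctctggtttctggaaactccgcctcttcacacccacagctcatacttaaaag
Rsad2: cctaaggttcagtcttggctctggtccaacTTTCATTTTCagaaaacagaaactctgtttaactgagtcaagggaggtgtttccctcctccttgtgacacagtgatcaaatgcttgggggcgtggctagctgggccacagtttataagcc
Of 17 interferon genes with a promoter 9 held this word (52.9 percent), against 3.04 percent of all promoters. In Isg15 3 overlapping matches lie side by side.

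The 17 clock genes tested had a median r of 0.140 between members. This median keeps the sign of r, so pairs that run opposite, such as Dbp and Arntl, lower it. Dbp, an output transcription factor of the clock, ran from 8.43 in F687 through 10.64 to 12.72 in F689 among the females, a 19.6-fold range, and from 9.41 in M724 through 11.20 to 12.13 in the males, a 6.56-fold range. Dbp and Per3 had r = 0.852 (permutation p = 1e-05, adjusted p = 2e-05, rho = 0.866, n = 35 livers, r = 0.827 without F687 and F689). Dbp and Arntl, the gene of the activator BMAL1, ran opposite, with r = -0.776 (permutation p = 1e-05, adjusted p = 2e-05, rho = -0.806, r = -0.796 without the same livers). By run this r was -0.864, -0.885, -0.842 and -0.813. With Dbp, 0.181 percent of genes were higher and 0.0679 percent lower, and of 16 other clock genes 2 were higher (Per3, and Tef, a relative of Dbp) and 2 lower (Arntl, and the repressor Nfil3). In the 30 other livers 3 were higher and 3 lower. Over probes 78.1 percent of the 32 calls (0.254 percent of probes) were higher, or 95.8 percent with median scaling, and leaving out F687 and F689 gave 7 calls. Nr1h4, the bile acid receptor FXR, was among the 10 genes of highest r (0.65), with 0.74 in the females and 0.30 in the males.

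The promoters of Per3 (chr4:151044666-151044915, minus strand) and Tef (chr15:81802523-81802672, plus strand, GRCm38.p6, RefSeq) are shown with the D-box TTATGTAA, the word that Dbp and its relatives bind, and the E-box CACGTG in capitals.
Per3: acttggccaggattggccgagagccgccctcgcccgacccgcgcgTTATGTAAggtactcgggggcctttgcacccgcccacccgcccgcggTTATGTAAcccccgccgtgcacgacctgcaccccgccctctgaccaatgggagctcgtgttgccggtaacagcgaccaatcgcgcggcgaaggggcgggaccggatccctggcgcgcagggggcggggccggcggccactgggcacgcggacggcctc
Tef: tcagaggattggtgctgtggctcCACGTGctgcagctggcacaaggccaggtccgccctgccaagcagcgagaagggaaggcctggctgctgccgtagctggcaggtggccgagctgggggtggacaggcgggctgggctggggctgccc
Per3 holds 2 D-boxes in these 250 bases and Tef 1 E-box. Of 15 clock genes with a promoter, 1 held a D-box (6.67 percent, against 0.862 percent of all promoters) and 3 an E-box, which were Ciart, Per1 and Tef (20.0 against 6.05 percent).

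Some programs varied mostly in the males. Cyp4a12a, Cyp4a12b, Elovl3, Cyp2d9 and Nat8, male-biased genes of hepatocytes, formed a set that was lowest in M730 (-1.83), M371 (-1.71) and M724 (-1.53). Cyp4a12a ran from 7.12 in M730 through 11.35 to 12.60 in the males, a 44.6-fold range, against 6.53 to 7.00 in all females. Cidea, a lipid droplet protein, ran from 6.61 in M730 through 9.94 to 11.43 in the males against 6.37 to 6.80 in the females. Its set (with Cidec, Gsta1, Gsta2, Slc17a8 and Tsc22d1) was low in M730 (-1.71), M371 (-1.41) and M724 (-1.39), so the same 3 males were low in both sets. All 3 were above the gap of Saa1, but so were M373, M718 and M728. Those lay at -0.265, 0.803 and 0.175 in the Cyp4a12a set and at -0.412, -0.336 and -1.051 in the Cidea set. Mup21, a major urinary protein, and Cyp2d9 had r = -0.065 in the females and 0.733 in the males, or 0.139 and 0.854 without the 5 livers that stood apart, and the difference passed a permutation test of the sex labels (p = 0.00265, adjusted p = 0.0291 over 22 pairs). The mean deviation of the Cyp4a12a set, which holds Cyp2d9, ran only from -0.246 to 0.199 in the females. In the males it ran from -1.834 to 1.055. Whether the small spread in the females bears on their r was not tested. Major urinary proteins share long stretches of sequence, so their probes may not separate them. Cyp2b9 and Cyp2b13, near relatives more abundant in females, had r = 0.861 (permutation p = 1e-05, adjusted p = 2e-05, rho = 0.858, n = 35 livers), with 0.883 in females and 0.824 in males.

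Hba-a1, an alpha globin, and Alas2, the erythroid enzyme of heme synthesis, were related differently in the sexes. Their r was 0.956 in the 16 females and -0.064 in the 19 males, a difference that passed the permutation of sex labels (p = 0.0001, adjusted p = 0.0022). Hba-a1 ran from 12.74 through 13.85 to 15.29 in the females and from 13.06 through 13.94 to 14.49 in the males. Alas2 ran from 7.82 through 8.75 to 10.51 in the females, and from 8.44 through 10.33 to 10.89 in the males, so that the median male lay above every female but F653. Over all 35 livers r was 0.499 (permutation p = 0.00246, adjusted p = 0.00301, rho = 0.418 with p = 0.0135) and 0.284 without F653 and F694. In the 14 females without F653 and F694 r was 0.935, and without the 5 livers that stood apart it was 0.903 in 13 females and -0.097 in 17 males. Within the female runs r was 0.967 and 0.957, and within the male runs 0.022 and -0.098.

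Mt1 and Mt2, the metallothioneins of the acute phase set, had r = 0.765 (permutation p = 1e-05, adjusted p = 2e-05, rho = 0.758, n = 35 livers, r = 0.794 without M366 and M721). Mt1 ran from 10.90 through 12.46 to 15.16 in the males and from 12.99 through 14.99 to 15.36 in the females, where most values lay near the top. With Mt1, 5.19 percent of genes were higher and 6.32 percent lower (11.3 percent of probes), among them 15 of 22 acute phase genes higher and 11 of 23 antioxidant genes lower, and Cidea had the lowest r (-0.795, with -0.205 in the females and -0.89 in the males). Egr1 and Fos, immediate early genes, had r = 0.646 (permutation p = 3e-05, adjusted p = 5.08e-05, rho = 0.599 with p = 0.00013, r = 0.647 without F656 and M728). Egr1 ran from 8.61 through 10.93 to 12.01 in the females and from 9.43 through 10.53 to 12.73 in the males. With Egr1, 0.43 percent of genes were higher and 0.566 percent lower (1.02 percent of probes), 32.0 percent of calls over probes being higher and 97.6 percent with median scaling. The limma fit made 0 calls when the percent of probes detected was added as a term. With Dnajb1, used because Hspa1b had no tested probe, 0.249 percent of genes were higher and 0.0905 percent lower (0.341 percent of probes), and 4 of 15 heat shock genes were higher, Hspa8, Hsph1 and Chordc1 with r of 0.72, 0.71 and 0.74. Of Dnajb1 calls over probes 69.8 percent were higher, or 98.8 percent with median scaling. Hspa5 and Pdia4, chaperones of the endoplasmic reticulum, had r = 0.179 (permutation p = 0.326, adjusted p = 0.326, rho = 0.208, n = 35 livers), so no relation was detected, and the unfolded protein list of 20 genes had a median r of 0.126.

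The median r between members, with its sign kept, can be set side by side for the lists. Lists with the highest median r between members were neutrophil (0.770, 14 genes), PPAR alpha targets (0.739, 23), class II and lymphocyte (0.707, 22), Kupffer cell and macrophage (0.7, 14), cholesterol synthesis (0.680, 18), cell cycle (0.673, 17), interferon response (0.670, 21) and acute phase (0.666, 22). Hepatocyte markers (-0.008), iron and hepcidin (-0.021), sex-dependent P450 and urinary proteins (0.082), zonation (0.108) and bile acid (0.175) were among the lists of low median r. A list whose members run opposite to each other can also have a low median, so these values do not show that its members vary apart. In the 30 other livers, the neutrophil, PPAR alpha and acute phase lists were at 0.696, 0.749 and 0.674. The class II and lymphocyte list was then at 0.669, interferon response at 0.651, cholesterol synthesis at 0.555, Kupffer cell and macrophage at 0.544 and cell cycle at 0.477. The median SD was 1.337 for the neutrophil list, 0.679 for the acute phase list and 0.172 for hepatocyte markers, against 0.174 over all genes.

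Partners chosen in one sex were then read in the other, which the choice did not use. The 10 genes of highest r with Saa1 in the males (r of 0.92 to 0.99) had r of 0.61 to 0.97 in the females, and all 10 reached 0.5, against 8.11 percent of all genes. The reverse choice gave 0.78 to 0.99 in the males, again 10 of 10, against 9.69 percent. For Cyp4a14 both choices gave 10 of 10, against 10.5 percent of genes in the females and 9.22 percent in the males. For Cd74 the counts were 10 and 9, against 11.5 and 11.2 percent, and for S100a8 10 and 7, against 15.0 and 12.3 percent. For Sqle 8 of the 10 chosen in the males held in the females, against 5.92 percent, while 3 of the 10 chosen in the females held in the males, against 2.76 percent. For Mt1 the counts were 9 and 6, against 6.46 and 9.2 percent, and for Scd1 6 and 3, against 3.89 and 6.14 percent. For Dbp 1 and 2 held, against 8.31 and 2.24 percent, for Egr1 4 and 0, against 7.13 and 1.06 percent, and for Dnajb1 4 and 1, against 7.28 and 3.56 percent.

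**Figure D4:**
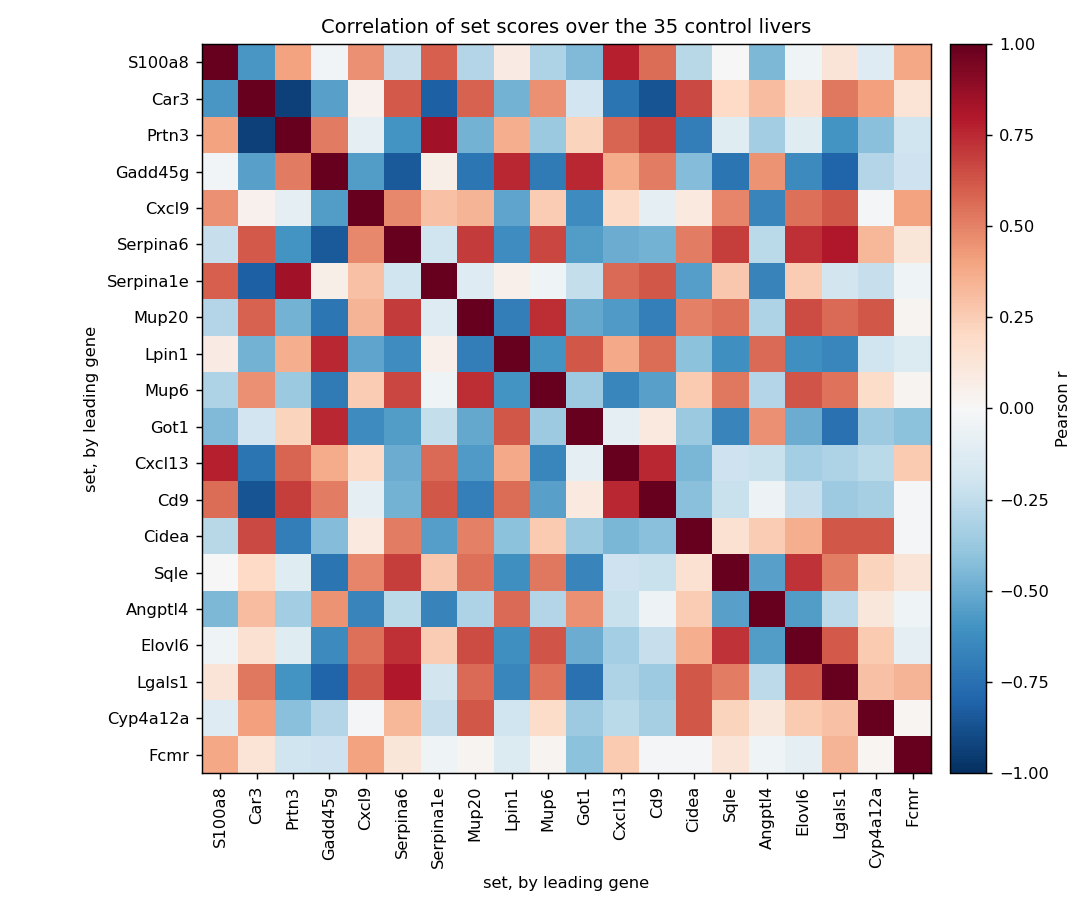
Pearson r between the mean deviations of the 20 sets over the 35 control livers, from blue (-1) to red (1), each set named by its leading gene. The Car3 and Prtn3 sets lie at -0.93, the Gadd45g and Serpina6 sets at -0.84, and the S100a8 and Cxcl13 sets at 0.78.

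Some relations between sets rested on the 5 livers that stood apart and others did not. In all 35 livers the Gadd45g set had r of -0.84 with the Serpina6 set, 0.75 with the Lpin1 and Got1 sets and -0.73 with the Sqle set. In the 30 other livers these were -0.58, 0.62, 0.35 and -0.01, so the opposition of Gadd45g and sterol genes was seen only with F652, M730 and the other livers apart included. The Sqle and Elovl6 sets went from 0.72 to 0.53 and the Sqle and Serpina6 sets from 0.69 to 0.17. The Car3 and Prtn3 sets had r of -0.93 in all livers and -0.95 in the 30, and the S100a8 and Cxcl13 sets 0.78 and 0.75. The S100a8 set had r of 0.40 with the Prtn3 set and -0.58 with the Car3 set, or 0.44 and -0.50 in the 30. The scores share their arrays, and these r are descriptions.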

How the data were processed

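Total RNA of frozen liver was labelled with biotin and hybridised to Illumina mouse bead arrays, 1 liver per array. The authors deposited scanner values as intensity (the average signal of a probe's beads, not normalized) with a detection score, which was read here as 1 minus the detection p. They also deposited processed log2 values, which the authors had made by log2 transformation and quantile normalization, and these were used as an alternative only.

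From the deposited intensity, log2 signals of all 69 arrays were quantile normalized here (limma 3.58.1, R 4.3.3), and the 35 control arrays were kept. A probe was tested where its detection p was below 0.05 on at least 7 control arrays, which left 12611 of 25697 probes and 8839 named genes, each represented by its tested probe of highest mean signal. Gene symbols came from the platform annotation updated through RefSeq. The mean of each sex was subtracted per probe. Genes with a pooled within-sex SD of 0.5 or more were clustered by average linkage at r of 0.6, and sets of at least 4 genes were kept. Each of 10 anchor genes was fitted in limma to all tested probes with sex as a term and Benjamini-Hochberg adjustment over all probes. Pairs were tested two-sided with 100000 permutations within sex and adjusted over the 22 pairs. Pairs in which a gene had no tested probe were not tested, and Dnajb1 replaced Hspa1b as an anchor for that reason. Promoters were those of RefSeq (GRCm38.p6), found for 7217 of the tested genes, 1 per gene. Python 3.11.15, numpy 2.4.6, scipy 1.17.1 and pandas 2.3.3 were used, and the scripts were tested on simulated data.

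The genes named were the 25 of largest SD, the 10 of largest absolute r with each anchor, both genes of each pair, up to 12 members of each set and up to 6 of each list. Other members of sets and lists are named to describe them and were chosen after their values were seen. The members, gene lists, anchors and pairs were chosen with earlier results of these data known. The number of arrays limits the precision. Consecutive animal numbers were treated as runs because no scan or extraction batch was given in the sources used here. Alternatives covered normalization, background correction, the detection filter, the runs, the percent of probes detected, the livers left out and the replicate number. The titles number the control females and males alike. Samples of the same number did not deviate together, so the numbers do not pair the samples.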

Additional observations from a re-analysis of the deposited data

Results flagged for a closer look

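The r of Hba-a1 and Alas2 was 0.956 in the control females and -0.064 in the control males, and the difference between the sexes had an adjusted p of 0.0022 over 22 pairs (permutation of the sex labels). The r of Mup21 and Cyp2d9 was -0.065 in the females and 0.733 in the males, with an adjusted p of 0.0291 for the difference by the same permutation test. The set that holds Cyp2d9 varied little in the females, with mean deviations from -0.246 to 0.199, against -1.834 to 1.055 in the males.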

How the results depend on the processing

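The number of genes with an SD of 0.5 or more went from 512 to 1045 with neqc background correction and to 319 without the 5 livers that stood apart, an alternative chosen after seeing the data. The first component went from 32.4 percent to 29.1 (median scaling), 30.7 (neqc), 30 (no detection filter) and 27.6 percent (percent of probes detected as a term), and leaving out each liver in turn gave 30.92 to 35.15 percent and 457 to 524 variable genes. Numbers of probes called with an anchor moved as follows. With median scaling, Saa1 went from 2471 to 1621, Cyp4a14 from 2731 to 1706, Mt1 from 1423 to 898, Scd1 from 650 to 260, Egr1 from 128 to 1718 and Dnajb1 from 43 to 4264. With no detection filter Scd1 gave 432, Sqle 194 and Egr1 20. With the run of numbers in place of sex Dbp gave 11 and Egr1 20. With the percent of probes detected as a term Dbp gave 16, Scd1 1150, Egr1 0 and Dnajb1 85. Without the 2 livers farthest from the median of the anchor, Cd74 (F653, M372) gave 919, Dbp (F687, F689) 7, Scd1 (F689, M367) 109, Sqle (F652, M726) 1474 and Egr1 (F656, M728) 1280. Without the 5 livers apart S100a8 gave 2891, Cd74 1214, Dbp 61, Scd1 36, Sqle 1273 and Dnajb1 20. With the replicate number as a block, Saa1 gave 1443, Cd74 1235, Cyp4a14 1154, Sqle 2, Mt1 0, and Dbp, Scd1, Egr1 and Dnajb1 1 each, while 16 of 22 pairs passed against 20. Of the 16 pairs of the same number in both sexes, r of the deviations ran from -0.545 to 0.481 (median 0.171), and 1 female was closest to its own number, so the block marks no known pairing. A further 75 anchor counts stayed within 1.5 times. Of the alternative values of pair r, 229 kept their direction and side of the threshold, 3 newly passed it and 8 no longer did. The 3 were Saa1 and Hamp with the run of numbers and without the 5 livers apart, and Hspa5 and Pdia4 with the replicate block. Among the 8 were Hba-a1 and Alas2 under 3 alternatives and Mup21 and Cyp2d9 with neqc. The cause of these changes was not tested. The r of the pairs that differed between the sexes was also computed without livers within each sex, chosen after seeing the data. Genes associated with Hspa1b could not be computed.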
